A study of Caenorhabditis elegans with 2 samples.

Results

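The peaks described here are the autosomal sites of T22C8.4 binding that lay outside coding genes and their promoters. T22C8.4 was followed by chromatin immunoprecipitation and sequencing (ChIP-seq), which maps where a protein sits on DNA, and the deposited lists give each enriched stretch (a peak) with its position of strongest signal (the summit). Of the 2415 peaks in the main list, 274 had an autosomal summit outside every protein-coding gene body, farther than 1000 bp upstream and 200 bp downstream of each coding transcript's 5' end, and farther than 150 bp from a tRNA gene. The remaining autosomal peaks away from tRNA genes comprised 879 with a summit in a coding promoter and 813 in a gene body outside promoters.

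There was 1 group of 2 biological replicates, both of mid-stage embryos from egg bleaching (age label, 2 hours) of the Caenorhabditis elegans strain OP785. The strain carries wgIs785, a transgene of T22C8.4 fused to TY1, EGFP and 3xFLAG made from a single-colony clone, together with unc-119(+) in an unc-119 (tm4063) background, and the immunoprecipitation used an anti-GFP antibody on whole organisms. The signal is therefore that of the tagged transgene summed over all cells of the embryo. An untagged or input sample was not analysed here, and with 1 group no comparison between conditions could be made. The sources used here do not say what T22C8.4 does.

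In the compact worm genome, sequence between coding genes holds distal regulatory elements, genes for small noncoding RNAs, pseudogenes and arrays of short tandem repeats. Small nucleolar RNAs (snoRNAs) guide the chemical modification of ribosomal and spliceosomal RNAs, and in worms some have their own promoter. Repeats and transposon remnants are most frequent on the chromosome arms, and less so in the gene-dense centres. The 12 sequences that follow were chosen because they show the kinds of DNA found under the strongest of these peaks. All are on the plus strand of ce11 (the same assembly as WBcel235), read from the RefSeq genome, each centred on a summit that overlapped a peak in each replicate's own list.

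The first 4 are among the strongest unique sites with neither a tandem repeat nor an annotated noncoding gene beside them, 101 bp each. Capitals mark the 6-base patterns ATCGAT and ATTGAT in either orientation (ATTGAT reads ATCAAT on the other strand). Each of the 4 holds 1 copy, and their GC content was 55.4, 50.5, 54.5 and 44.6% in the order printed.
chrIII:10720283-10720383: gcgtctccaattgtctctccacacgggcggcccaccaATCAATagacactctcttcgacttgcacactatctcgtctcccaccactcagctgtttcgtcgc
chrIII:3677518-3677618: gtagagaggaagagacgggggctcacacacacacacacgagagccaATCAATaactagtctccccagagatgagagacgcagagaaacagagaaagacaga
chrII:13335579-13335679: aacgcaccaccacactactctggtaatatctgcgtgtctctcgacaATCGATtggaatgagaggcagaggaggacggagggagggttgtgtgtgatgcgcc
chrIV:3160934-3161034: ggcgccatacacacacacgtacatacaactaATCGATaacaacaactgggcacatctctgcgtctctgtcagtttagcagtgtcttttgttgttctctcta

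The next 3 are the strongest tandem repeats that hold the pattern, where capitals again mark ATCGAT and ATTGAT. The same short unit returns along the window, and with it the pattern, 4 or 5 times in 101 bp.
chrIII:1807431-1807531: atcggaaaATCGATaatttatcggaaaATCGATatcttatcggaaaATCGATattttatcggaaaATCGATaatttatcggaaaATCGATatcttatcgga
chrIV:1408294-1408394: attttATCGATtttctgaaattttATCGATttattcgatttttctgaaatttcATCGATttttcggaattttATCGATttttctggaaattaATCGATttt
chrV:19075307-19075407: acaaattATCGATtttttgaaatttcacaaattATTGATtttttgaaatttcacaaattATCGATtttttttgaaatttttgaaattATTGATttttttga

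The following 2 are the strongest tandem repeats without the pattern. Both are built of the same 25-bp unit and lie in the same gap between coding genes.
chrIII:2499429-2499529: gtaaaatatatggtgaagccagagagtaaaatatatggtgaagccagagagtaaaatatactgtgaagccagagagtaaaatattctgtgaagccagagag
chrIII:2497933-2498033: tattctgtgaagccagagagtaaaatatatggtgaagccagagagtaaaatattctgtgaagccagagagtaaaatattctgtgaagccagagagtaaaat

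The last 3 are the strongest sites beside snoRNA genes, shown over 151 bp. Here capitals mark GTTCGANNC, the letters of the B box that RNA polymerase III genes such as tRNA genes carry, in either orientation. It is present in the first of the 3 and absent from these windows of the other two.
chrII:11960762-11960912: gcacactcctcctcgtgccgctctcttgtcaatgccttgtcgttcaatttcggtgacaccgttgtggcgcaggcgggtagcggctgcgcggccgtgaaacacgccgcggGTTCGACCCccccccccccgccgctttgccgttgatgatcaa
chrV:15873903-15874053: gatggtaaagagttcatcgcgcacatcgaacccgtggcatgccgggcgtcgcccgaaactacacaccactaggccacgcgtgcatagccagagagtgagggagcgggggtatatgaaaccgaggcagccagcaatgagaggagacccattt
chrIV:8252973-8253123: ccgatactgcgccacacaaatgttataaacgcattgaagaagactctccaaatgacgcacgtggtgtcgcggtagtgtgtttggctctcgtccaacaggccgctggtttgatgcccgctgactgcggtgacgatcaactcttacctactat

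The signal of these peaks lay close to that of the whole list. The signal value, the authors' measure of enrichment, has no unit. It had a median of 103 over the 274 peaks, with quartiles of 80.5 and 153 and a highest value of 664. Over the whole main list the median was 105, with quartiles of 83.3 and 152 and a highest value of 1295. The median of the 274 stood at percentile 48.5 of the list, and 12 of the 100 strongest peaks were among them. Most peaks, 229 of 274 (83.6%), were 290 bp wide, a width shared by 81.1% of the main list.

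A small set of entries stood apart at the low end. Of the 274, 16 had a signal value below 60, from 5.17 to 58.3, with a -log10 q-value of at most 0.504, and their next main-list summit was 199 to 211 bp away. Counting by distance, 16 entries, 14 of them among those below 60, lay within 300 bp of a stronger summit, and that stronger summit was another of the 274 in 14 cases and a summit at a tRNA gene in 2. A replicate's peak that overlaps such an entry can be the neighbour's: the entry at chrIV:683297 had a main-list signal of 5.17, its neighbour 169, and the overlapping replicate peaks 85.7 and 79.7. Without the 16 entries beside a stronger summit, 258 peaks were left, with a median signal of 108 and a lowest of 54.9. Merging overlapping peaks gave 261 regions.

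The replicates listed these peaks about as often as they listed peaks elsewhere. Replicate 1's own list, called without replicate 2, overlapped 172 of the 274 (62.8%), and replicate 2's list overlapped 143 (52.2%). Both lists overlapped 118, or 43.1% (exact 95% interval 37.1 to 49.2), against 42.3% of the whole main list. Neither list overlapped 77, or 28.1%, against 25.1% of the main list. The conservative list, which rests on peaks that repeat between the replicates, overlapped 230, or 83.9%, against 85.6% of the main list. Each of the 3 intervals (for neither list 22.9 to 33.8, for the conservative list 79.0 to 88.1) included the share of the whole list. They cover the counting of peaks only, since a peak list holds no read counts and the depth is unknown.

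How often both replicates listed a peak followed its signal. Among the 69 strongest of the 274 (signal 153 or more), both lists overlapped 67. In the next 69 it was 39, in the following 68 it was 7, and among the 68 weakest it was 5. The main list was called on both replicates together, so its signal is not independent of the replicates' own lists. This order follows largely from that and is no separate result. In the ranked lists, which keep far more entries, 266 of the 274 were found in both replicates. Over those 266, the signal values of the replicates had a Spearman correlation of 0.68, and over the 118 in both own lists 0.80, as a description of peaks that share the same libraries. The 54 peaks found only in replicate 1's own list had a median signal of 57.4 in replicate 1 and 40.5 in replicate 2. The 25 found only in replicate 2's list had medians of 38.2 in replicate 1 and 54.7 in replicate 2. Both sets were picked by the list that held them, so a stronger entry in that replicate follows from the choice and is no result. Signal values of the replicates come from lists scaled separately, so only their order within a list can be read.

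**Figure D1:**
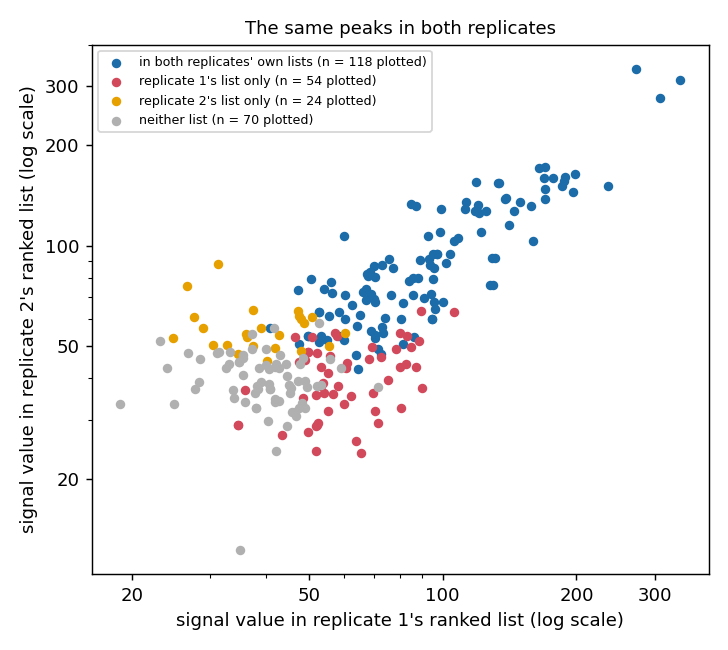
Signal value of each peak in replicate 1's ranked list (x axis) and replicate 2's ranked list (y axis), both without unit and on log scales. Points are the 266 peaks found in both ranked lists, coloured by which replicate's own thresholded list overlapped them; the 118 in both lists occupy the upper right, and the 3 highest are the sites at W03C9.9, T06C12.16 and the pseudogene WBGene00045366.

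Peaks were thinner on the ground here than in coding promoters and gene bodies. The sequence that meets the rule covered 19.4 Mb, or 23.5% of the autosomes, and held 14.1 peaks per Mb (exact 95% Poisson interval 12.5 to 15.9). Promoters held 39.4 per Mb (36.8 to 42.1) and gene bodies 19.95 per Mb (18.6 to 21.4). None of the 3 intervals overlapped. Repeated or poorly mappable sequence was not taken out of these lengths.

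The density also differed between chromosomes. It was 21.5 per Mb of eligible sequence on chromosome III (interval 16.4 to 27.7, 60 peaks) and 20.2 on chromosome I (15.3 to 26.2, 57 peaks). It was 12.6 on chromosome II (9.17 to 16.8, 45 peaks), 11.8 on chromosome IV (8.96 to 15.2, 59 peaks) and 10.2 on chromosome V (7.67 to 13.4, 53 peaks). Chromosomes I and III thus stood above chromosomes IV and V, with intervals that did not overlap, and that of chromosome II overlapped all others.

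Most of the peaks lay towards the chromosome ends, as did most of the main list. Of the 274, 211 (77.0%, interval 71.6 to 81.9) were on the chromosome arms, taken as the outer 2 of 3 equal lengths, against 69.6% of positions taken every 500 bp that meet the same rule (38738 positions). The share was 80.2% over the whole main list, which includes the X chromosome, and this lies inside the interval of the 274. It was 74.1% for promoter peaks and 92.4% for gene-body peaks. The sides were uneven: chromosome V had 9 peaks on its left arm, 11 in the middle and 33 on its right arm, and chromosome III had 33, 6 and 21.

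**Figure D2:**
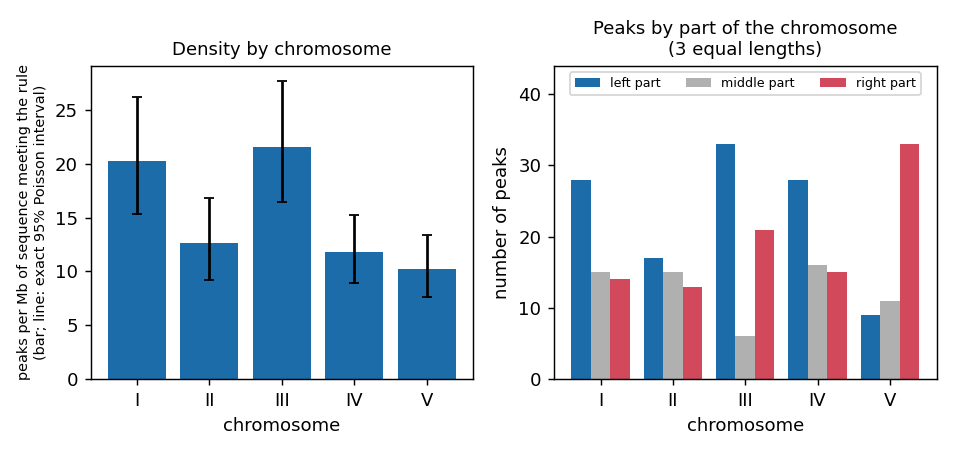
Left: peaks per Mb of autosomal sequence that meets the rule, by chromosome, with exact 95% Poisson intervals as lines. Right: number of peaks in the left, middle and right of 3 equal lengths of each chromosome; chromosome III has 6 in its middle and chromosome V has 33 of 53 on its right arm.

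The DNA under the summits carried ATCGAT or ATTGAT far more often than the DNA around it. At least 1 of these patterns lay within 50 bp of the summit in 175 of 274 peaks, or 63.9% (57.9 to 69.6). In the windows 300 to 400 bp to either side of the same summits the share was 16.1% (88 of 548 windows), and at the positions taken every 500 bp it was 11.6%. ATCGAT was in 127 peaks (46.4%), against 8.21% of the flanking windows and 2.32% of the positions. ATTGAT was in 85 peaks (31.0%), against 10.8% and 9.53%. Both were present in 37, ATCGAT without ATTGAT in 90 and ATTGAT without ATCGAT in 48. The share among the 274 was near that of promoter peaks (67.1%, 63.9 to 70.2) and below that of gene-body peaks (82.7%, 79.9 to 85.2).

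The pattern sat close to the summit. In the 175 peaks that had it, the centre of the nearest copy was a median of 12.5 bp from the summit, with quartiles of 5.50 and 22.5 bp. Outside tandem repeats, copies reached 29.1 per 100 peaks in the 20 bp just left of the summit and 26.8 in the 20 bp just right of it, against 2.77 and 2.70 at the positions taken every 500 bp. At 200 to 400 bp from the summit the peaks had 2.36 to 6.30 copies per 100 in each 20-bp step.

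**Figure D3:**
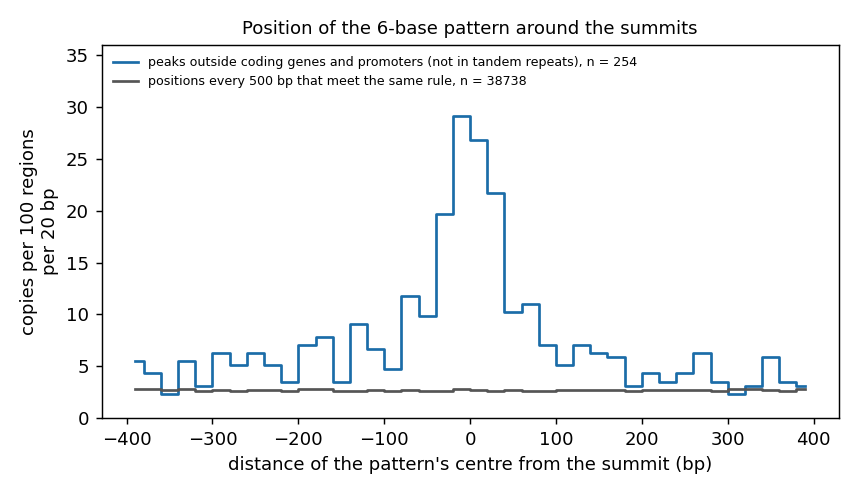
Copies of the 6-base pattern per 100 regions in steps of 20 bp (y axis) against the distance of its centre from the summit in bp (x axis). The line for the 254 peaks outside tandem repeats rises to 29.1 beside the summit, while the line for 38738 positions that meet the same rule stays between 2.60 and 2.85.

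The bases next to the pattern were not evenly used either. Outside tandem repeats, the copy nearest the summit stood in TATCGATT in 66 peaks and in TATTGATT in 47, read on whichever strand gives these letters, and the next most frequent, AATCGATT, in 12. These 8-base forms were picked after the flanking bases had been seen. TATCGATT or TATTGATT lay within 50 bp in 131 of the 274 peaks (47.8%), against 1.69% of the positions taken every 500 bp, 49.9% of promoter peaks and 77.2% of gene-body peaks. Of the 4 unique sites printed first, those at chrIII:10720283-10720383 and chrIII:3677518-3677618 hold TATTGATT, that on chromosome IV holds TATCGATT and that on chromosome II holds AATCGATT, each read on the strand that gives these letters. In mammals, sequences of this kind are known as binding sites of Onecut proteins, homeodomain factors with a cut domain; which protein touches them here was not tested.

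Base composition split the peaks into unlike kinds. The 101 bp around the summit had a median GC content of 43.6%, against 34.2% in the flanking windows of the same peaks. The same medians were 41.6 and 35.6% over the whole main list and 42.6 and 36.1% for promoter peaks. For gene-body peaks they were 32.7 and 35.1%. In the 51 peaks below 30% GC, 50 had the pattern (98.0%) and 49 lay on the arms, with a median of 5 copies within 150 bp of the summit. From 30 to 40% GC the share with the pattern was 71.4% (40 of 56), from 40 to 50% it was 55.2% (48 of 87), and at 50% or more it was 46.2% (37 of 80). At the positions taken every 500 bp the same 4 classes had 13.5, 12.1, 8.35 and 5.76%. The pattern is itself rich in A and T, and its share fell with rising GC content in the peaks and at the positions alike, staying above the positions in each class.

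The number of copies varied as much. Within 150 bp of the summit, 76 peaks had no copy, 97 had 1, 49 had 2 or 3 and 52 had at least 4. All 52 of the last lay on the arms, and their median GC content was 24.8%. Their median signal was 119, against 103 for the 97 peaks with 1 copy and 86.8 for the 76 without. The 76 were mixed, with 13 tandem repeats and 27 peaks beside a noncoding gene. The 16 entries beside a stronger summit had a median of 0 copies and a median signal of 13.1. Whether the signal depends on the number of copies was not tested. The highest signals did not need many copies: the site at chrV:18723778-18724000, with a signal of 627 and replicate signals of 273 and 339, had 1 copy.

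**Figure D4:**
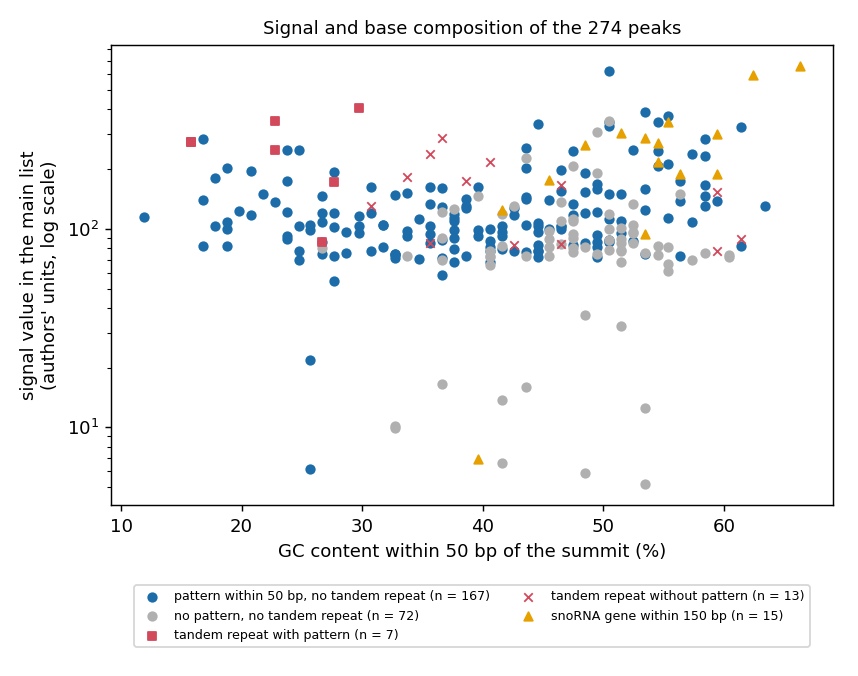
Signal value in the main list (y axis, log scale, without unit) against the GC content of the 101 bp around the summit (x axis, %) for all 274 peaks, by what lies at the summit. Tandem repeats with the pattern are at 15.8 to 29.7% GC, peaks beside snoRNA genes run up to 66.3% GC and a signal of 664, and the few points below a signal of 40 are entries beside a stronger summit.

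Other letters were searched in either orientation, and each was in fewer of the peaks than either form of the 6-base pattern. The letters GAGAGA were within 50 bp in 18.6% of the peaks, against 5.84% of their flanking windows, and GCGTCTC in 4.74% against 0.912%; both were added to the search after the sequences had been seen. GTTCGANNC was in 4.01% against 0.365%. Over the whole main list, which includes peaks at tRNA genes, GAGAGA was in 11.1%, GCGTCTC in 3.85% and GTTCGANNC in 5.88%. In the same order, promoter peaks had 14.1, 6.03 and 0.910%, and gene-body peaks had 5.04, 1.35 and 1.35%. TATAAA was rarer at the summits (6.57%) than in the flanks (13.0%), as was TTTTTTTT (10.9% against 18.8%). GCGCGC (4.38% at the summits and 1.09% in the flanks), CACGTG (1.82% in both), TTAGGC (2.19 and 1.82%), TGANTCA (2.19 and 4.20%) and GATAAG (2.55 and 3.65%) had summit shares whose intervals overlapped those of the flanks. GAGAGAGA, which overlaps GAGAGA, was in 4.01% against 0.547%. A match says only that the letters are there.

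Unique sites made up most of the peaks. A 301-bp stretch centred on the summit had no second match in the genome (at least 80% identity over 100 bp, across the summit) in 200 of the 274, and at least 1 more place in 74. Among the strongest unique sites with the pattern was that at chrIII:10720256-10720416, between W09D10.4 and tat-3, which encodes a phospholipid-transporting ATPase. Its signal was 369, and 199 and 164 in the replicates. The site at chrIII:3677489-3677643, between C46F11.6 and the neuropeptide receptor gene npr-15, had 345, and 170 and 172. The site at chrII:13335540-13335714, between sam-10 and the mitochondrial ribosomal protein gene mrpl-20, had 345, and 189 and 161. These 3 lay more than 1000 bp from the nearest coding gene end.

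Further unique sites of this kind were as strong. The site at chrIV:3160882-3161046, between T23E1.1 and Y67D8B.1, had a signal of 336, and 197 and 145 in the replicates. On chromosome I, the site at chrI:12039871-12040062, between F58D5.7 and F58D5.5, had 389, and 236 and 151. The site at chrI:7518573-7518731, 3474 bp from goa-1, which encodes a G protein alpha subunit of neuronal signalling, had 326, and 170 and 148. Each overlapped a peak in each replicate's own list.

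Tandem repeats were found at 20 of the 274 summits (7.30%, 4.52 to 11.0), taking as a repeat a 101-bp window that matches itself at 70% or more after a shift of 5 to 100 bp. This was near the share over the whole main list, 7.04% (6.05 to 8.13). At the positions taken every 500 bp the share was 3.60% (3.41 to 3.79), for promoter peaks 2.73% (1.76 to 4.04) and for gene-body peaks 14.3% (11.9 to 16.9). The 20 lay in 15 gaps between coding genes, and 15 of the 20 were between genes that point at each other (convergent genes). Reads from repeats can be placed in more than 1 location, and the sources used here do not say how the authors placed them.

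The repeats with the pattern were all listed by both replicates. There were 7, in 5 gaps, with a median signal of 274 and replicate signals from 73.3 to 188 in replicate 1 and from 54.8 to 156 in replicate 2. All 7 lay between convergent genes and on the arms. The strongest, at chrIII:1807176-1807775 between rimb-1, a gene for a presynaptic protein, and the calpain gene clp-4, had a signal of 404, and 186 and 151 in the replicates, with 13 copies of the pattern within 150 bp and a 19-bp unit. A second summit of the same 600-bp stretch, 201 bp away, had 85.7. The array at chrIV:1408177-1408490, between spp-31 and rpc-11, which encodes a subunit of RNA polymerase III, had 348, and 188 and 156. The array at chrIV:849091-849240, between lgc-33 and lem-4, had 250, and 141 and 115, and its sequence had 24 like places in the genome.

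The gap between twk-46, a potassium channel gene, and the nuclear receptor gene nhr-95 held more of these peaks than any other, 6 within 7338 bp. The 2 strongest were arrays with a 26-bp unit, at chrV:19075262-19075423 (275, and 145 and 127 in the replicates) and chrV:19076222-19076536 (274, and 125 and 127). The other 4 had main-list signals of 203, 181, 97.9 and 68.3, and all 6 had the pattern within 50 bp. Of the 6, 3 lay inside the annotated pseudogene WBGene00012679. Both replicates listed the 4 strongest and neither listed the 2 weakest.

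The 13 repeats without the pattern were fewer in both lists. Both replicates listed 7 of them, and their median signal was 153. Of these, 5 shared a 25-bp unit with 39 or 40 like places in the genome and signals from 84.7 to 288, and 3 shared a 15-bp unit with 133 to 135 like places and signals from 77.3 to 153. The strongest, at chrIII:2499404-2499543 between Y54F10AL.1 and Y54F10AM.8, had 288, and 134 and 154 in the replicates, and a second summit in the same gap had 238, and 118 and 127. The site at chrIV:16458416-16458705, between dlc-4 and VY10G11R.1 and 10977 bp from the nearer of them, with a 40-bp unit and 172 like places, had 183 in the main list, 85.0 in replicate 2 and no entry in replicate 1.

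Annotated noncoding genes were beside 76 of the 274 summits (27.7%, 22.5 to 33.4). This was above the share over the whole main list, 16.9% (15.4 to 18.4), and the shares of promoter and gene-body peaks were lower still. It was close to the 25.1% of positions taken every 500 bp, which meet the same rule, but the kinds of gene differed from those at the positions. snoRNA genes were within 150 bp of 15 summits (5.47%, 3.10 to 8.87), against 0.114% of positions. Genes annotated only as ncRNA were beside 34 (12.4%, 8.75 to 16.9), against 3.35%. Pseudogenes were beside 24 (8.76%, 5.69 to 12.8), against 14.0%, and piRNA genes, which make small RNAs that silence transposons, beside 3 (1.09%, 0.226 to 3.17), against 7.03%. Long intergenic noncoding RNA (lincRNA) genes were beside 7 (2.55%, 1.03 to 5.19), against 0.924%. No rRNA gene and no gene annotated as antisense was within 150 bp.

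**Figure D5:**
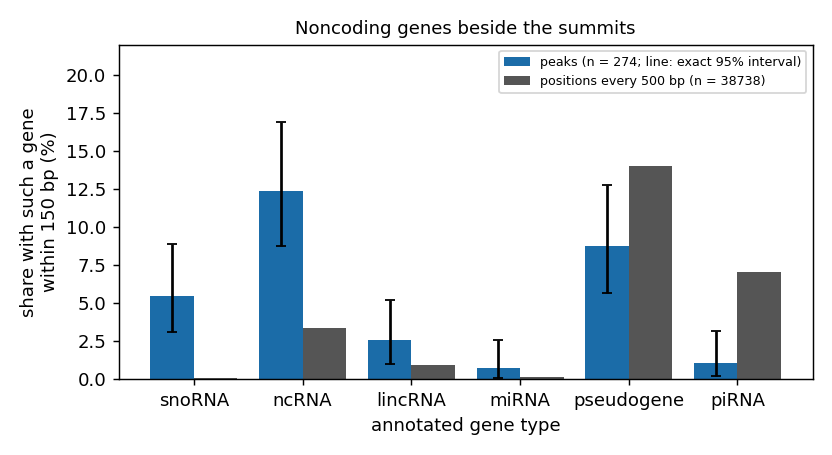
Share of the 274 peaks (left bars, with exact 95% intervals) and of 38738 positions that meet the same rule (right bars) with an annotated gene of each type within 150 bp (y axis, %). The snoRNA bar is 5.47% for the peaks and 0.114% for the positions, and the pseudogene bar is 8.76% and 14.0%.

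The summits beside snoRNA genes stood just upstream of them. Of the 15, 14 were 42 to 74 bp before the 5' end of the gene, with a median of 47.5 bp, and none was inside. The other was downstream of ZK20.9 and was an entry with a signal of 6.95 beside a stronger summit. The median signal of the 15 was 263, and both replicates listed 13. These 13 include the weak entry beside ZK20.9. Its replicate signals, 97.0 and 94.5, are those of the stronger summit beside the same gene, so 1 pair of replicate peaks is counted for both. Only 1 of the 15 had ATCGAT or ATTGAT within 50 bp (6.67%), against 67.2% (133 of 198) of the peaks with no noncoding gene beside them. GTTCGANNC was within 50 bp in 5 of the 15, against 5 of the 198. Their median GC content was 54.5%.

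The strongest 2 of the snoRNA sites were among the 3 strongest of all 274. The site beside W03C9.9, at chrII:11960689-11960976 and printed above, had a signal of 664, and 343 and 314 in the replicates. It lay in a gap of 246 bp between the convergent genes W03C9.6 and W03C9.1. The site beside T06C12.16, at chrV:15873860-15874104 between str-56 and nhr-102, had 593, and 308 and 277. Those beside H09I01.2, F32E10.10, Y23H5B.10 and T19B4.8 had 346, 303, 299 and 286 in the main list. In each of these 4, replicate 1 had 119 to 165 and replicate 2 had 131 to 171. ncRNA genes also lay within 150 bp of those at H09I01.2, Y23H5B.10 and T19B4.8, at 42, 105 and 42 bp from the summit, where the snoRNA genes were at 46, 49 and 43 bp.

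MicroRNA genes, whose products repress messenger RNAs by base pairing, lay beside 2 summits. The site at chrIV:11026088-11026315, 90 bp upstream of mir-51 (annotated cel-mir-51) and inside the ncRNA gene F36H1.17, had a signal of 350, and 177 and 159 in the replicates. The site at chrIV:14033888-14034173, inside mir-52 (cel-mir-52), had 226, and 129 and 91.7. Neither had the pattern within 50 bp. The 1 site at a small nuclear RNA gene, inside sls-2.2 for a spliced leader RNA, had 126, and 47.2 and 73.4. The 1 site at a tRNA pseudogene, at chrIV:2740135-2740316, had 306, and 170 and 138. The sequence of the tRNA pseudogene site had 70 like places in the genome, and 13 other main-list summits lay in like sequence.

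Where the gene was annotated as ncRNA, lincRNA or pseudogene, the summit was mostly inside it. This held for 23 of 34 ncRNA, 7 of 7 lincRNA and 20 of 24 pseudogene neighbours. A long gene takes up most of the stretch within 150 bp of it, and the lincRNA genes here were 543 to 3983 bp long. A summit inside a long gene therefore follows largely from its length. How often the positions taken every 500 bp lay inside such genes was not counted. The pattern was within 50 bp in 15 of the 34 (44.1%), 6 of the 7 (85.7%) and 19 of the 24 (79.2%). The strongest ncRNA sites that were not also beside a snoRNA or microRNA gene were at T19F4.6 on chromosome V (284, and 149 and 135 in the replicates) and F33A8.11 on chromosome II (206, and 98.7 and 110). The strongest lincRNA site, inside linc-128, had 233, and 131 and 91.6. The signal of the pseudogene sites had a median of 84.0; the strongest was the site 100 bp upstream of WBGene00045366 already given at 627, followed by sites at 203 and 161. Both replicates listed 4 of the 24 pseudogene sites.

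Several pseudogenes held more than 1 peak. WBGene00012690 on chromosome V had 4 within 150 bp, with signals of 161, 121, 87.2 and 79.4, and all 4 had the pattern. Both replicates listed the 2 strongest of these. The strongest piRNA neighbour was at chrIV:15571010-15571161, 145 bp from 21ur-8889, with 328, and 169 and 159 in the replicates.

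The orientation of the coding neighbours differed from that of the positions taken every 500 bp. Convergent genes flanked 80 of the 274 peaks (29.2%, 23.9 to 35.0), against 17.6% of positions. Divergent genes flanked 66 (24.1%, 19.1 to 29.6), against 28.9%, and genes in the same orientation 128 (46.7%), against 53.4%. The nearest coding gene end was a 3' end for 163 peaks (59.5%, 53.4 to 65.4), against 51.5%. A coding gene end lay within 1000 bp of 107 peaks, and there it could only be a 3' end, since the rule takes out the promoters. The gap that held the peak had a median length of 5682 bp, against 7289 bp for the positions.

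Families of coding genes were counted by the name of the nearest gene. Nuclear receptor genes (nhr-), which encode ligand-dependent transcription factors, were nearest to 9 of the 274 (3.28%), against 1.95% of positions. Several of these 9 had nhr-95 as the nearest gene and lay in the same gap, that between twk-46 and nhr-95. Chemoreceptor genes were nearest to 4 (1.46%), against 6.90%, and F-box genes to none, against 1.63%. Collagen genes were nearest to 3 (1.09%, against 0.586%), lectin genes (clec-) to 2 (0.730%, against 0.973%) and bath- or math- genes to 1 (0.365%, against 0.410%). No homeobox gene named ceh-, histone, ribosomal protein, innexin or Wnt gene was nearest to any, where the positions had 0.444, 0.0852, 0.237, 0.0774 and 0.0129%. Large families count several neighbours in the same cluster, so peaks are not independent here.

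Values on either side of the rule's limits were as follows. The 22 with a summit 1001 to 1200 bp upstream of a coding 5' end had signals from 5.17 to 389 with a median of 115, and the 31 peaks left out at 801 to 1000 bp had 7.70 to 315 with a median of 118. Between 151 and 500 bp from a tRNA gene there were 2 of the 274, with signals of 5.17 and 16.0. The 26 peaks left out only for a tRNA gene lay 0 to 52 bp from it, with signals from 75.4 to 295 and a median of 128.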

How the data were processed

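ChIP-seq with an anti-GFP antibody was done on 2 biological replicates; per the labels, chromatin was sonicated to fragments of 200 to 800 bp and positions are on ce11. No source used here names the aligner or the peak caller, which are therefore not given. The authors deposited lists called per replicate (1629 and 1319 peaks after thresholding) and on both replicates together (2415 in the main and 2326 in the conservative list). Each holds a signal value and a score with a highest value of 1000, both the authors', and the -log10 of a q-value, as deposited; the signal was used to describe and rank peaks within a list. Depth is unknown. Per the file headers nothing further is recorded, since the lists have none.

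Gene positions came from Ensembl release 115 (WBcel235, identical to ce11) and sequence from the RefSeq genome of the same assembly. Peaks were shared between lists at 1 bp of overlap. Positions every 500 bp that meet the same rule (38738) served as background. Like sequences were found with blastn 2.17.0; other steps used Python 3.11.15, pandas 2.3.3 and scipy 1.17.1. Intervals are exact (Clopper-Pearson or Poisson, 95%) and describe peaks, not replicates; no chance test was made. Named peaks were the 20 of highest signal overlapping a peak of each replicate's own list, the 3 strongest per noncoding gene type and the strongest and weakest of each autosome; others named for a repeat or a shared gap were chosen after their values were seen. The members, patterns and lists were chosen with earlier results of these data known. The rule, the overlaps and the repeat measure were tested on simulated data. Alternatives were other lists, thresholds, promoter windows, tRNA distances and search windows.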

Additional observations from a re-analysis of the deposited data

How the results depend on the processing

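Over 6 results (the number of peaks, the share in both replicates' lists, the median signal as a percentile, the share on the arms, the noncoding-gene share and the pattern share), 55 of 69 values under alternatives stayed within 1.5 times the main count or inside the main 95% interval, and 14 moved. Using 1 replicate's own list gave 148 to 177 peaks, of which 65.0 to 77.0% were in the other replicate's list. Peaks with the capped score of 1000 had 52.9% in both lists. The stronger part of the list (signal at or above its median) left 132 peaks, 78.8% in both lists and 72.0% with ATCGAT or ATTGAT. A noncoding gene was beside 17.9% at 0 bp and 33.9% within 500 bp, and the pattern was in 48.2% within 25 bp and 69.7% within 100 bp. The outer 2 of 4 equal chromosome lengths held 66.4%. Wider windows can only raise the noncoding-gene and pattern shares, and narrower ones only lower them; the cause of the other moves was not tested. Leaving out tandem repeats and sequence with a second place in the genome, chosen after seeing the data, gave 71.4% with the pattern; the cause was not tested. The median signal stayed between percentiles 46.9 and 52.3 in all 10 alternatives run. Without the 16 entries beside a stronger summit, also chosen after seeing the data, both lists held 43.4% and the pattern was in 66.3%. No paired analysis was possible because there is 1 group. Depth is unknown, so no limit of detection can be given.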
